A study of Mus musculus with 6 samples.

Results

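The calcineurin, NFAT and Rcan genes are 10 genes of the signalling route that carries a calcium signal to the nucleus of the heart muscle cell: the Rcan genes Rcan1 and Rcan2, the calcineurin subunit genes Ppp3ca, Ppp3cb and Ppp3r1, the transcription factor genes Nfatc1, Nfatc2, Nfatc3 and Nfatc4, and Myoz1, which encodes a calcineurin-binding protein of the muscle Z-disc. They were picked by gene symbol, 10 of the 24404 genes in the raw count table. Of the 10 genes, 9 had enough counts to be tested and Myoz1 did not. RNA was sequenced from mouse hearts of 2 genotypes, wild type (WT-TAC) and miR-204-/- (KO-TAC), with 3 libraries each. Both genotypes had undergone transaortic constriction (TAC), in which the aorta is narrowed so that the left ventricle pumps against a raised pressure, and hearts were taken 5 weeks later. Every value below therefore compares genotypes under pressure overload. A group without surgery was not analysed here. The labels call the tissue heart, without a chamber, and give neither the animals' age nor how the miR-204-/- mice were made. They do not say whether each library came from its own animal, and p-values accordingly measure only how far these libraries spread, which may be technical.

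Calcineurin is a phosphatase made of a catalytic subunit and a calcium-binding regulatory subunit, and it is switched on by calcium-loaded calmodulin. It removes phosphates from the cytoplasmic NFAT proteins, which then enter the nucleus and act with partners such as GATA4 and MEF2. In the overloaded heart this route is known to drive growth of the muscle cell. The Rcan proteins bind calcineurin and restrain it. One form of Rcan1 is made from an internal promoter that NFAT activates, and its transcript is widely read as a report of calcineurin activity. miR-204 is a microRNA, a short RNA that represses transcripts carrying a match to its seed.

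Libraries held 6411538 to 8571737 counts. The 6 ventricular muscle markers checked (Myh6, Actc1, Tnnt2, Tnni3, Myl2 and Ryr2) summed to between 63105 and 90119 CPM (counts scaled to library totals, edgeR's per-million unit) in every library; all 6 markers were present. The microRNA gene's own row, Mir204, was at 0 counts in all 6 libraries, so the count table gave no check of the genotype labels. The column of KO-TAC replicate 3 carries a number that differs from its label and equals that of WT-TAC replicate 3. The index part of its heading, unique among the samples, was used to assign it. These libraries were also the closest of all 15 pairs, with a median chi-square over genes of 3.0, against 3.82 for the next pair, 7.12 for the most distant and 0.455 for sampling noise alone. Values of the calcineurin, NFAT and Rcan genes and of the wider pathway that move most without KO-TAC replicate 3 are therefore also given without it. Fold changes of cell type markers are given with all 6 libraries only.

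Sequences of these genes come first. One set is the pair of Rcan1 start regions that RefSeq lists (build GRCm38.p6, minus strand, 250 bases before to 50 bases after the start), shown because the start within the gene is the one known for its NFAT control. Capitals mark the NFAT core GGAAA, or TTTCC where it lies on the opposite strand.
Rcan1 upstream start, chr16:92466120-92466419: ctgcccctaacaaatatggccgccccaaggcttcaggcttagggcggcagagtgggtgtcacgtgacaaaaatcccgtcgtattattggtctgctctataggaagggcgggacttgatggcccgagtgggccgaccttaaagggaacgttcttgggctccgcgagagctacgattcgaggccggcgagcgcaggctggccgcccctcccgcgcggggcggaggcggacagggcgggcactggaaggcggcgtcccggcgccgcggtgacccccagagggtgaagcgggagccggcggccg
Rcan1 internal start, chr16:92400029-92400328: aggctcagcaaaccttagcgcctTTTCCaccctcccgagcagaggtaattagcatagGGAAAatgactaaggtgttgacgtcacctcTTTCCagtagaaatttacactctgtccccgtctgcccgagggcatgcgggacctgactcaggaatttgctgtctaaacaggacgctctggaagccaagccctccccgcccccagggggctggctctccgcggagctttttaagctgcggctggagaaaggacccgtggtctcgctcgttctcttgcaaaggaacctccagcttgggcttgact

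The start sites lie 66.1 kb apart in Rcan1, which spans chr16:92391953-92470867 on the minus strand (GRCm38). The upstream window holds 0 matches to GGAAA on either strand. The internal window holds 3, whose first bases lie at −227, −193 and −163 from the start. Of all 32851 RefSeq windows of this length, 61.3% hold at least 1 match and 9.42% hold at least 3. Each window has 2 of the gene's 7 annotated transcripts starting within 200 bases of it. The deposited table has 1 count per gene, so transcripts from the upstream and the internal start could not be counted apart.

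RefSeq windows were found for 7 of the 10 genes, 12 windows in all. Ppp3cb had the most matches, 4 in its window, a number reached by 2.65% of windows. Nfatc4 had 3, and Nfatc2 had 3 in one window and 1 in the other. Rcan2 had 2 in the first of its 3 windows and 0 in the others. Nfatc3 had 1 and 0 in its 2 windows, and Ppp3r1 had 0. A match is only a run of letters, and most windows in the genome hold one.

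**Figure D1:**
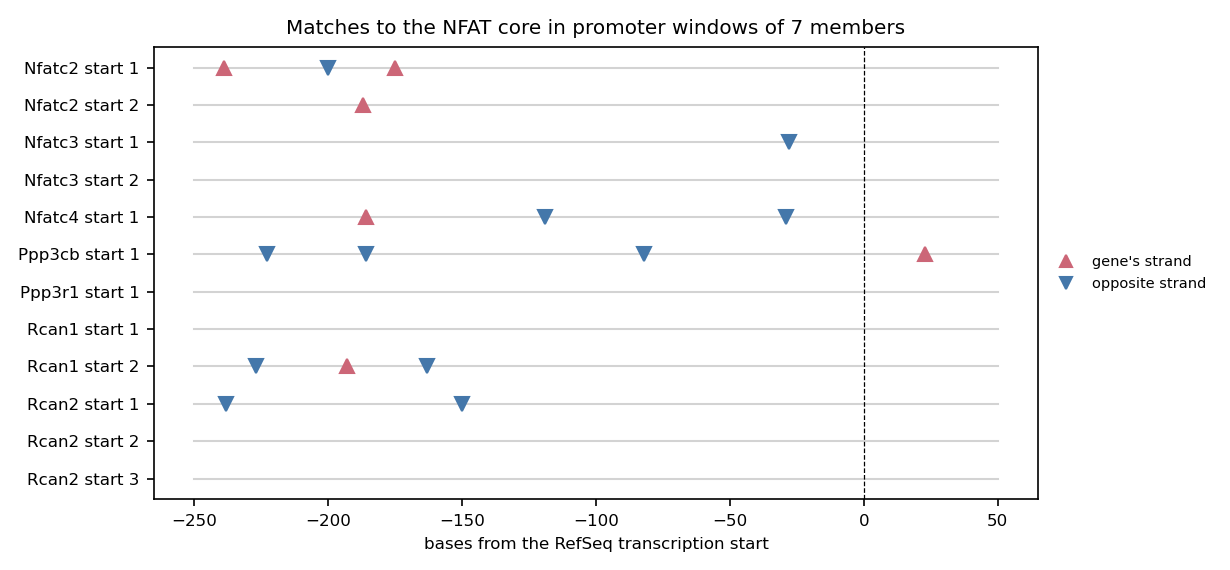
Matches to the NFAT core GGAAA in the 12 RefSeq promoter windows of 7 genes, by distance in bases from the transcription start; triangles pointing up lie on the gene's strand and those pointing down on the opposite strand. The internal Rcan1 window (start 2) holds 3 matches and the upstream one (start 1) holds 0.

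The other set is the microRNA and the stretches of these genes' 3′ UTRs that pair with its seed, shown because the microRNA is what the KO-TAC mice lack. The capitals in miR-204-5p mark the seed, bases 2 to 8, and those in each transcript mark the matching AAAGGGA.
miR-204-5p, chr19:22750610-22750631: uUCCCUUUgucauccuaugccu
Rcan2 site, chr17:44038130-44038155: cgtgctaagttgtaAAAGGGAacagc
Ppp3r1 site, chr11:17198537-17198562: tcagtatggtggagAAAGGGAagggg
Nfatc2 site, chr2:168477653-168477678: tcaggatgggagagAAAGGGActttg
Nfatc3 first site, chr8:106128757-106128782: gtaaggtgaatttcAAAGGGAgggtt
Nfatc3 second site, chr8:106130446-106130471: cagtgctcctatacAAAGGGAagatg

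The 26-base sites were read from the annotated transcripts (GENCODE M21, GRCm38), on the plus strand apart from that of Nfatc2, and the microRNA from RefSeq (GRCm38.p6, plus strand). Of the 10 genes, 4 held a site, 5 sites in all, and Rcan1 held 0 in its 1500-base 3′ UTR. Among 11686 tested genes with an annotated 3′ UTR, 17.0% held at least 1 site. The UTRs of the 10 genes ran from 271 to 3882 bases, against a median of 1253 over those tested genes, and longer UTRs hold more chance matches. The levels of the 4 genes in the hearts are given with their roles below.

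Of the 9 tested genes Rcan1 had the widest gap between genotypes, with a fitted level 1.88-fold that of WT-TAC in KO-TAC, but it did not pass the test across all genes. Its level was 97.7, 78.5 and 58.5 CPM in WT-TAC replicates 1, 2 and 3 and 166, 183 and 93.7 CPM in KO-TAC replicates 1, 2 and 3. KO-TAC replicates 1 and 2 stood above every wild-type library, whereas KO-TAC replicate 3 lay below WT-TAC replicate 1, so the groups overlapped. The means were 78.2 ± 19.6 CPM in WT-TAC and 147 ± 47.2 CPM in KO-TAC (SD, n = 3). In edgeR's quasi-likelihood test its log2 difference, KO-TAC over WT-TAC, came to 0.91 ± 0.26 (SE), or 1.88-fold with 1.28 to 2.78 as its 95% interval. The unadjusted p was 0.00373 and the Benjamini-Hochberg adjusted p over 12487 tested genes was 0.999 in edgeR. An exact two-sided permutation test of its log2 CPM over the 6 libraries gave p = 0.2, where 0.1 is the smallest that 3 against 3 allows.

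Between 427 and 1503 reads of Rcan1 were counted per library, and the spread between libraries of a genotype was far wider than counting error at that depth. The fold change was positive under all 14 other settings tried, from 0.73 without KO-TAC replicate 2 to 1.16 without KO-TAC replicate 3 on the log2 scale. Its unadjusted p was under 0.05 in 15 of 15 settings, and its adjusted p in 1. That one, with no filter on low counts, gave an edgeR adjusted p of 0.0290. Without KO-TAC replicate 3 the edgeR adjusted p was 0.109.

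**Figure D2:**
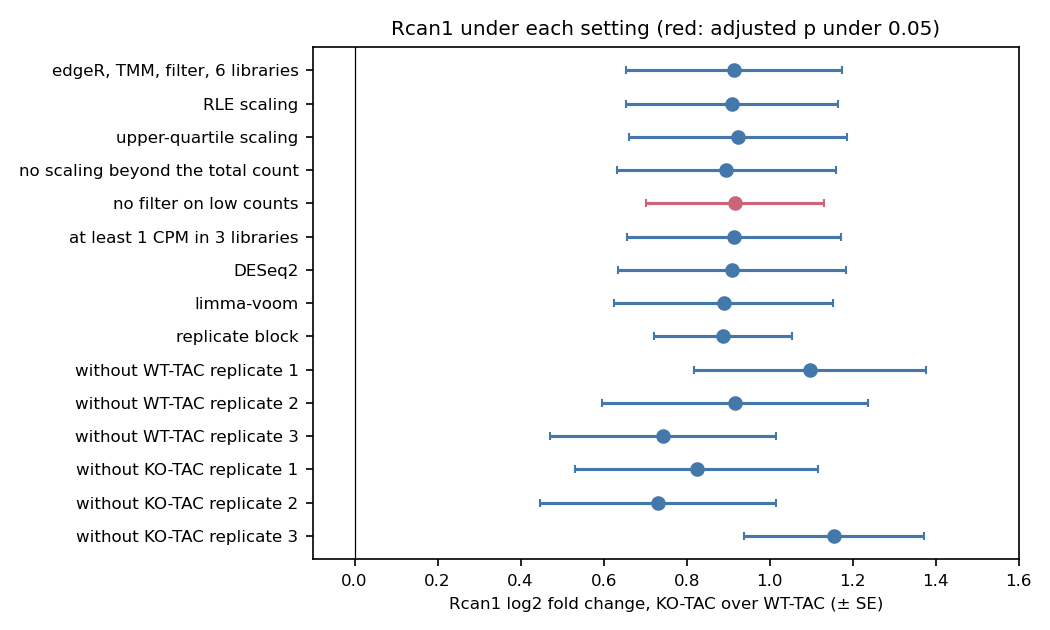
Log2 fold change of Rcan1, KO-TAC over WT-TAC (horizontal axis, ± SE), with the settings used throughout at the top and under each of 14 alternatives; red marks an adjusted p under 0.05. All points lie between 0.73 and 1.16, and the unfiltered fit is the single one in red.

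Rcan2, the Rcan form abundant in muscle and brain, did not share this gap. It measured 478, 513 and 581 CPM in WT-TAC and 369, 456 and 601 CPM in KO-TAC. The KO-TAC libraries included both the lowest and the highest of the 6. The log2 fold change was −0.14 ± 0.21 (SE), with an interval for the fold of 0.659 to 1.25 and an unadjusted p of 0.522. Without KO-TAC replicate 1 it was 0.014 and without KO-TAC replicate 3 it was −0.34. Rcan2 lies on chromosome 17 (43801351 to 44039516, plus strand), and it carries one of the 5 seed sites.

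Measured per kilobase of exon (RPKM, CPM divided by the length of the gene's exons), Rcan2 was the most abundant of the 10 genes in every library. The length takes in every annotated exon, whether or not these hearts use it. Shares, ratios and rankings between genes in RPKM depend on that length. Its mean was 120 ± 12.0 RPKM in WT-TAC and 109 ± 26.7 RPKM in KO-TAC, against 25.4 ± 6.35 and 47.7 ± 15.3 RPKM for Rcan1 (SD, n = 3). Rcan1 made up 22.0%, 17.3% and 12.3% of the summed RPKM of Rcan1, Rcan2 and Rcan3 in the WT-TAC libraries and 38.2%, 35.6% and 17.8% in the KO-TAC libraries. KO-TAC replicate 3 lay within the wild-type range and the other KO-TAC libraries above it. The summed RPKM of Rcan1 and Rcan2 was 5.85 ± 0.600 times that of the 3 catalytic subunits in WT-TAC and 6.20 ± 1.03 times in KO-TAC (SD, n = 3), a difference smaller than the spread between libraries. Rcan3, the remaining family member and not one of the 10, was at 3.10 ± 0.706 and 2.59 ± 0.0485 RPKM.

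**Figure D3:**
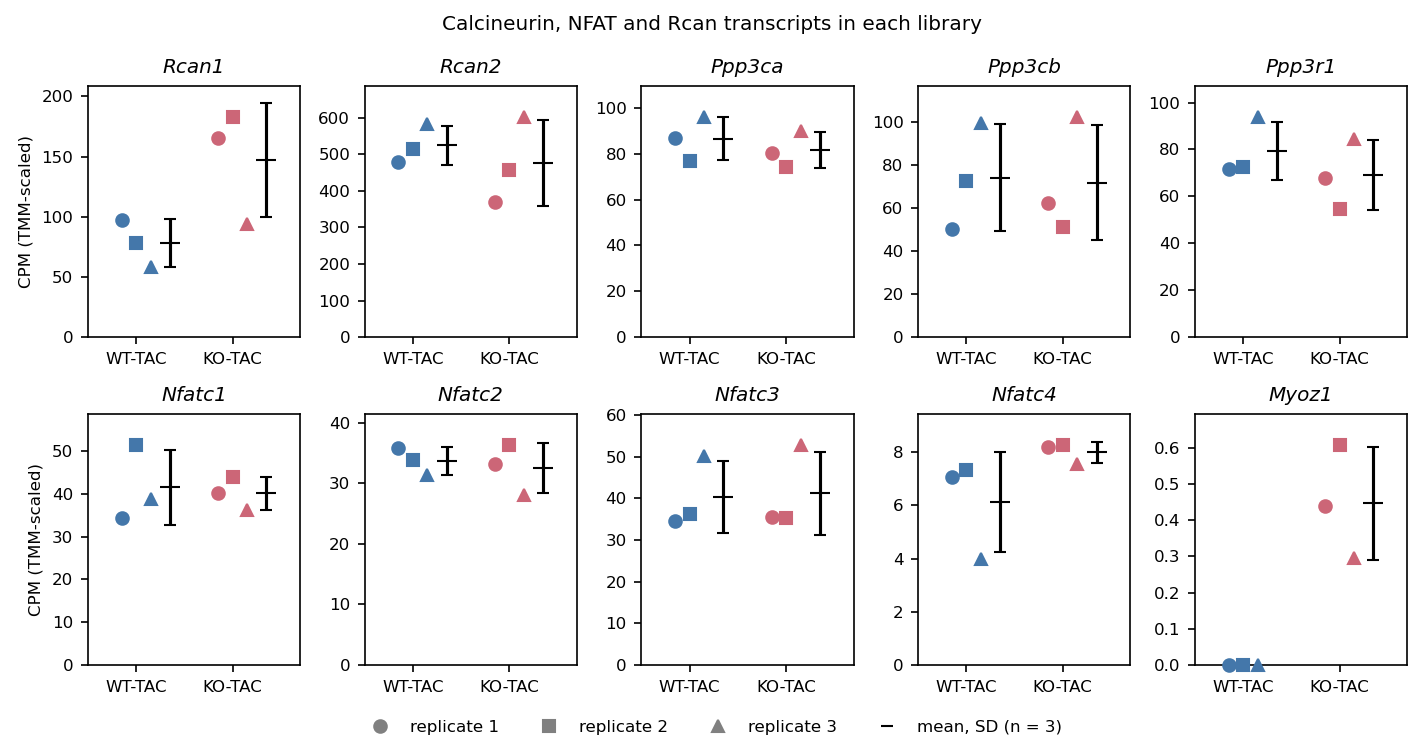
CPM of each of the 10 genes in every library (vertical axes start at 0; circles, squares and triangles are replicates 1, 2 and 3; bars are mean and SD, n = 3). Rcan1 has KO-TAC values of 166, 183 and 93.7 against 97.7, 78.5 and 58.5 in WT-TAC, whereas the groups interleave for most other genes.

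No calcineurin subunit gene differed detectably between genotypes, and the intervals of their folds leave room for changes in either direction. Ppp3ca encodes the alpha catalytic subunit, the form abundant in brain and heart. Its values were 86.8, 77.0 and 95.9 CPM in WT-TAC and 80.4, 74.2 and 90.0 CPM in KO-TAC. The groups overlapped, and the fitted difference was −0.09 ± 0.18 (log2, SE) with a fold interval of 0.720 to 1.23 and an unadjusted p of 0.638.

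Ppp3cb encodes the beta catalytic subunit, the form known to be needed for the hypertrophic response of the heart. It was at 50.02, 72.6 and 99.4 CPM in WT-TAC and at 62.1, 51.0 and 102 CPM in KO-TAC. Replicate 3 of each genotype had the highest level in its group, and the ranges of the groups overlapped almost fully. Its fitted log2 fold change was −0.05 ± 0.29 (SE), the fold interval 0.625 to 1.50 and the unadjusted p 0.870. Leaving out 1 library moved it between −0.39 (without KO-TAC replicate 3) and 0.22 (without WT-TAC replicate 3), so these data do not set its direction.

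Ppp3r1 encodes the calcium-binding B subunit, on which every catalytic subunit depends. It measured 71.6, 72.6 and 93.7 CPM in WT-TAC and 67.9, 54.8 and 84.4 CPM in KO-TAC. Only WT-TAC replicate 3 stood above every KO-TAC library, and the groups overlapped. Ppp3r1 had a log2 fold change of −0.20 ± 0.21 (SE), with a fold interval of 0.639 to 1.19 and an unadjusted p of 0.350. Without KO-TAC replicate 3 the log2 fold change was −0.37, at an unadjusted p of 0.0975 in edgeR. Of its 3228 exon bases, 462 are shared with Wdr92 on the same strand, a gene with 40 to 81 counts per library. Reads from that stretch could belong to either gene, and their number was not measured.

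Per kilobase of annotated exon the 3 catalytic subunits had similar shares. That rests on exon lengths of 9.981 kb for Ppp3ca, 8.809 kb for Ppp3cb and 2.985 kb for Ppp3cc. In CPM, without the lengths, Ppp3cc was the lowest of the 3 in every library. Ppp3ca gave 34.8% ± 3.98 of their summed RPKM in WT-TAC and 32.2% ± 2.25 in KO-TAC, Ppp3cb 32.9% ± 6.59 and 31.1% ± 6.13, and Ppp3cc, the gamma subunit gene and not one of the 10, 32.2% ± 3.36 and 36.7% ± 3.95 (SD, n = 3). Their summed level was 25.1 ± 3.69 RPKM in WT-TAC and 25.6 ± 4.36 RPKM in KO-TAC. Ppp3r1 alone was at 24.6 ± 3.86 and 21.4 ± 4.59 RPKM. Ppp3cc was the subunit gene whose groups did not overlap, with 23.0, 23.9 and 24.8 CPM in WT-TAC and 27.0, 26.6 and 29.6 CPM in KO-TAC. The fitted difference was 0.22 ± 0.21 (log2, SE), with an unadjusted p of 0.334 in edgeR. Of all tested genes, 4.26% had every KO-TAC library above every WT-TAC library.

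None of the NFAT factors passed the test, and Nfatc4 had the largest fitted difference among them. Nfatc1, known for its part in heart valve formation, measured 34.3, 51.4 and 38.9 CPM in WT-TAC and 40.3, 43.9 and 36.2 CPM in KO-TAC. All KO-TAC values lay within the wild-type range. The log2 fold change was −0.05 ± 0.21 (SE), the fold interval 0.701 to 1.33 and the unadjusted p 0.815.

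Nfatc2, a factor also known from T cells, measured 35.9, 33.9 and 31.4 CPM in WT-TAC and 33.2, 36.3 and 28.1 CPM in KO-TAC. The KO-TAC libraries held both the highest and the lowest value. The log2 fold change was −0.05 ± 0.21 (SE), with a fold interval of 0.707 to 1.32 and an unadjusted p of 0.815.

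Nfatc3, a factor that has been tied to heart muscle growth, was at 34.4, 36.2 and 50.3 CPM in WT-TAC and at 35.5, 35.4 and 52.8 CPM in KO-TAC. In each genotype replicate 3 stood well above the other libraries, which lay within a few CPM of each other. Between genotypes Nfatc3 differed by 0.03 ± 0.24 (log2, SE), with a fold interval of 0.719 to 1.45 and an unadjusted p of 0.896. Without scaling beyond the total count the value turned to −0.000188, and without KO-TAC replicate 3 to −0.19. Nfatc3 shares 219 exon bases with Esrp2 on the opposite strand, which had 2 to 6 counts per library.

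Nfatc4, also tied to heart growth, was the least abundant of the 4 factors. It measured 7.08, 7.34 and 3.97 CPM in WT-TAC and 8.18, 8.26 and 7.54 CPM in KO-TAC. Every KO-TAC library was above every WT-TAC library, by a narrow margin except over WT-TAC replicate 3. It was the 1 gene of the 9 tested whose groups did not overlap with KO-TAC above, an arrangement seen in 4.26% of all tested genes, and 0 of the 9 lay wholly below, against 3.72%. The fitted difference was 0.38 ± 0.38 (log2, SE), the fold interval 0.734 to 2.31 and the unadjusted p 0.339. Without WT-TAC replicate 3 the log2 fold change was 0.15.

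Per kilobase the order of the factors was the same in both genotypes at its ends. Nfatc1 gave 41.7% ± 5.26 of the summed RPKM of the 4 factors in WT-TAC and 40.3% ± 3.35 in KO-TAC. Nfatc4 gave 8.00% ± 2.51 and 10.3% ± 0.552. Nfatc2, at 24.2% ± 3.22 and 23.0% ± 2.70, and Nfatc3, at 26.1% ± 5.85 and 26.4% ± 6.50, did not differ beyond their spread (SD, n = 3). The summed level of the 4 was 13.2 ± 1.15 RPKM in WT-TAC and 13.3 ± 0.388 RPKM in KO-TAC.

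Across the 10 genes the order of mean level per kilobase was Rcan2, Rcan1, Ppp3r1, Ppp3ca, Ppp3cb, Nfatc1, Nfatc3, Nfatc2, Nfatc4 and Myoz1. Rcan1 and Ppp3r1 differed by less than their spread in WT-TAC, at 25.4 ± 6.35 and 24.6 ± 3.86 RPKM. In KO-TAC their means were 47.7 ± 15.3 and 21.4 ± 4.59 RPKM, but not every library showed the wider gap. KO-TAC replicate 3, at 30.4 and 26.1 RPKM, had a narrower gap than WT-TAC replicate 1, at 31.7 and 22.2 RPKM. Ppp3ca and Ppp3cb were neighbours within their spread in both genotypes, as were Nfatc2 and Nfatc3.

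Myoz1 encodes calsarcin-2, the calcineurin-binding Z-disc protein of fast skeletal muscle. It had 0 counts in each WT-TAC library and 3, 5 and 2 counts in KO-TAC replicates 1, 2 and 3. The WT-TAC group's 0 counts allow up to 3 over the group, or 0.134 CPM, and the KO-TAC group had 0.458 CPM, so Myoz1 was at least 3.41-fold higher in the KO-TAC reads. That bound covers counting error in WT-TAC only, not the error of the 10 KO-TAC reads nor the spread between libraries. With no filter on low counts its unadjusted p was 0.0470 and its adjusted p over 17724 genes was 0.975 in edgeR.

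So few reads carry little weight on their own, and the genes on either side of Myoz1 were far more abundant. Synpo2l, the muscle gene whose 3′ end lies 2405 bases upstream of Myoz1 on the same strand, measured 600, 438 and 297 CPM in WT-TAC and 385, 666 and 179 CPM in KO-TAC, so its groups overlapped. Usp54, the neighbour 8043 bases downstream, measured 60.1, 50.5 and 55.5 CPM in WT-TAC and 34.9, 36.8 and 30.1 CPM in KO-TAC. Every KO-TAC library was below every WT-TAC library, as in 3.72% of all tested genes. The 6 fast skeletal muscle markers summed to 1.84 to 6.92 CPM in WT-TAC and 0 to 5.95 CPM in KO-TAC, with Mylpf at 0 in every library. Their part in the Myoz1 reads was not tested. Myoz2, the cardiac and slow muscle form of the same anchor, was at 176 ± 24.9 RPKM in WT-TAC and 189 ± 4.46 RPKM in KO-TAC (SD, n = 3), with a log2 fold change of 0.11 ± 0.19 (SE).

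Of the 9 tested genes, 3 had a positive and 6 a negative log2 fold change, with a median of −0.05 and a range of −0.20 to 0.91, beside a median of 0.0012 over all tested genes. With edgeR, 0 of the 9 had an adjusted p under 0.05, against 3 of 12487 genes in all (0.024%). Rcan1 was the 1 of the 9 with an unadjusted p under 0.05 and higher in KO-TAC, as 1.36% of all tested genes were. On the lower side there were 0 of the 9, against 1.57% of all. DESeq2 and limma-voom also called 0, with 1 gene each at an unadjusted p under 0.05. Of the 4 genes with a seed site, Rcan2, Ppp3r1 and Nfatc2 had log2 fold changes of −0.14, −0.20 and −0.05 and Nfatc3 had 0.03. None of the 4 passed the test in either direction.

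The wider pathway was described through lists of 57 genes, the 10 included, of which 54 were tested. With edgeR 0 were called, 4 were higher and 1 was lower at an unadjusted p under 0.05 (1.36% and 1.57% of all tested genes), and the median log2 fold change was −0.03. Besides Rcan1, these were Lmcd1, Dyrk2, Xirp1 and Trpc6. The groups did not overlap in 4 genes higher and 3 lower in KO-TAC, arrangements that 4.26% and 3.72% of all tested genes showed.

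Among anchors, inhibitors and partners of calcineurin, 8 of 10 were tested, 4 with positive and 4 with negative values and a median of 0.02. Lmcd1, a LIM-domain protein linked to calcineurin in heart muscle, had the smallest p. It measured 36.2, 37.6 and 22.9 CPM in WT-TAC and 63.7, 73.5 and 44.0 CPM in KO-TAC, so each KO-TAC library was above each WT-TAC library. In edgeR its log2 fold change came to 0.91 ± 0.25 (SE; fold interval 1.29 to 2.72), at an unadjusted p of 0.00292 and an adjusted one of 0.999. Dropping any single library left the estimate between 0.71 and 1.09, and the lowest adjusted p over the alternatives was 0.0807. The calcineurin inhibitor Cabin1 was at −0.14, and the immunophilins Fkbp1a and Ppia, which carry the drugs tacrolimus and cyclosporin to calcineurin, at 0.09 and −0.04.

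The 12 genes of calmodulin and calcium entry were all tested, 7 with positive and 5 with negative values and a median of 0.03. Trpc6 encodes a cation channel known both to feed calcium to calcineurin and to be an NFAT target. It measured 10.7, 1.72 and 2.60 CPM in WT-TAC and 1.17, 1.46 and 0.296 CPM in KO-TAC. The groups did not overlap, but WT-TAC replicate 1 stood far above all others. Trpc6 had a log2 fold change of −2.31 ± 0.84 (SE) with an unadjusted p of 0.0156 in edgeR, and without WT-TAC replicate 1 it was −1.13 with an unadjusted p of 0.239. Stim1, the calcium sensor of the sarcoplasmic reticulum, was at 0.49 ± 0.26 (SE) with an unadjusted p of 0.0749, and at 0.67 with an unadjusted p of 0.0193 without KO-TAC replicate 3.

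Of the 11 NFAT kinases, which return NFAT to the cytoplasm, 3 had positive and 8 negative values, with a median of −0.11. Dyrk2 measured 13.1, 13.2 and 19.7 CPM in WT-TAC and 21.3, 24.1 and 24.8 CPM in KO-TAC. Its groups did not overlap, its log2 fold change was 0.61 ± 0.26 (SE) and its unadjusted p was 0.0363 in edgeR. That p was 0.0922, 0.121, 0.0827 and 0.0780 without WT-TAC replicate 1, WT-TAC replicate 2, KO-TAC replicate 2 and KO-TAC replicate 3. Gsk3a and Mapk14 lay wholly lower in KO-TAC, with log2 fold changes of −0.22 and −0.17 and unadjusted p of 0.294 and 0.370. The nuclear partners Gata4, Mef2a, Mef2c and Mef2d lay between −0.06 and 0.04.

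**Figure D4:**
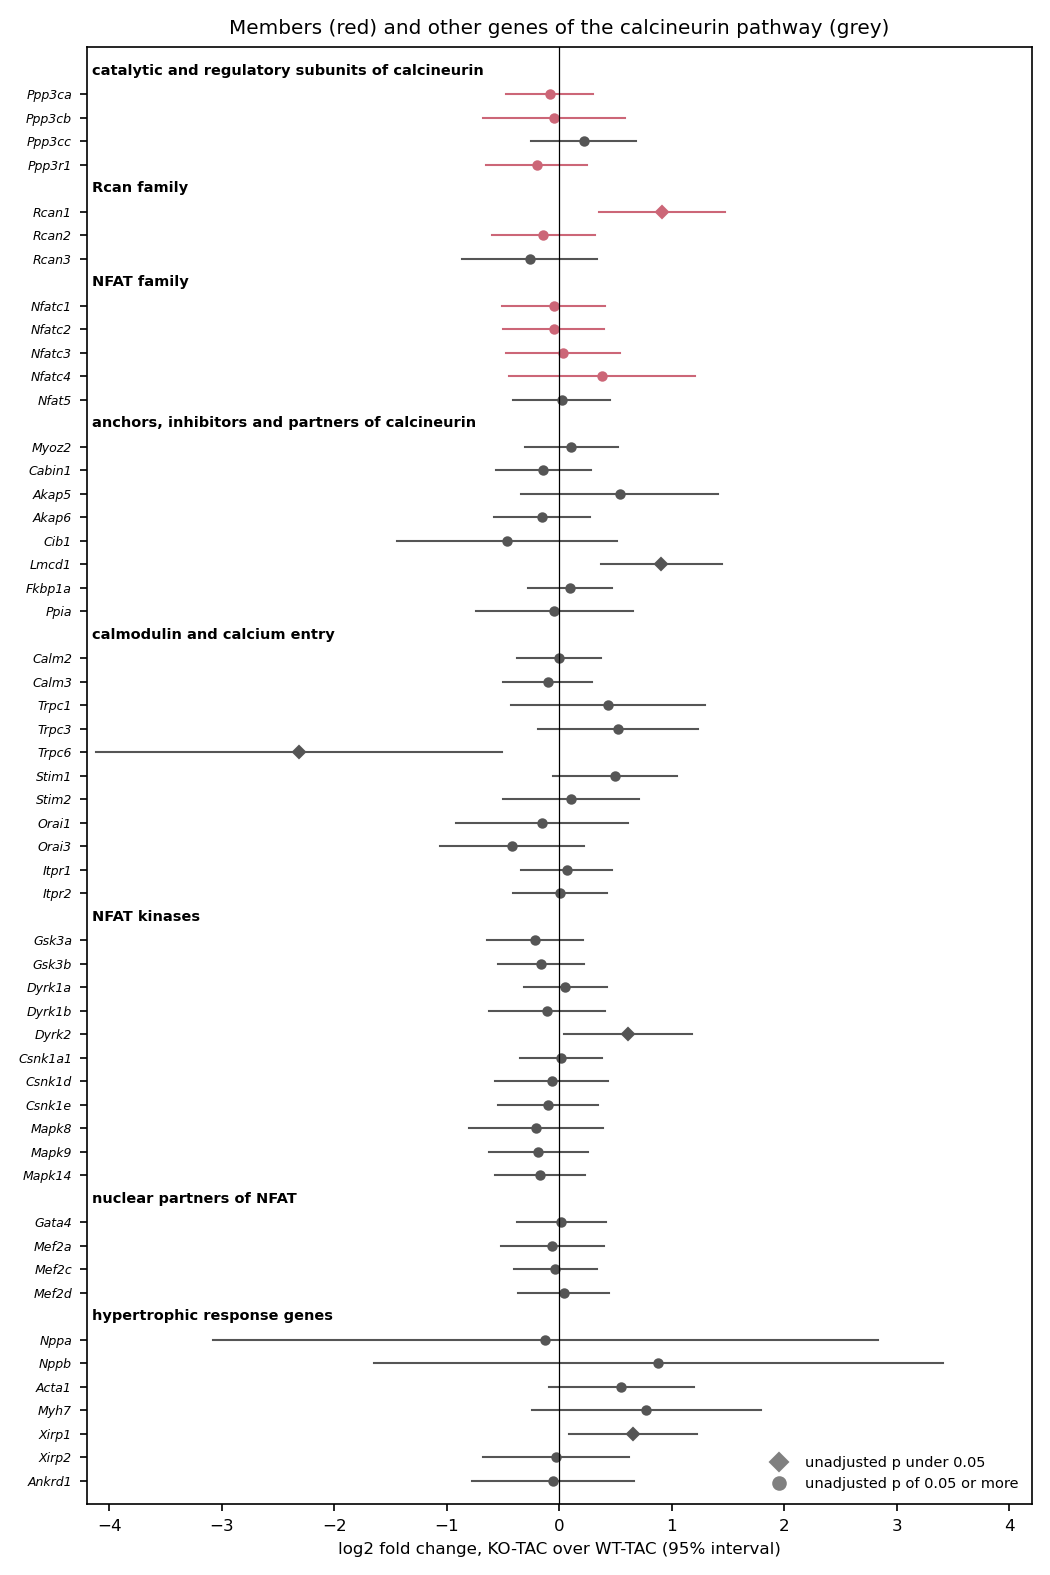
Log2 fold change, KO-TAC over WT-TAC, with 95% interval for the tested genes of the pathway lists, leaving out 1 that is not reported here, in red the 9 tested genes of the calcineurin, NFAT and Rcan group and in grey the others; diamonds have an unadjusted p under 0.05. Of the red points, Rcan1 at 0.91 is the one whose interval lies off 0.

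The 7 hypertrophic response genes, transcripts known to accompany overload, were set beside Rcan1. Of these, 4 had positive and 3 negative values, at a median of 0.55 (log2 fold change), and 1 had an unadjusted p under 0.05. That was Xirp1, an actin-binding protein of the intercalated disc, at 461, 366 and 275 CPM in WT-TAC and 678, 683 and 372 CPM in KO-TAC. KO-TAC replicates 1 and 2 were above every wild-type library and KO-TAC replicate 3 was not, the same arrangement as for Rcan1. In edgeR its fold change was 0.65 ± 0.26 (log2, SE) at an unadjusted p of 0.0273, and the p ran from 0.00166 without KO-TAC replicate 3, where the log2 value was 0.89, to 0.113 without WT-TAC replicate 3, where it was 0.48.

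Acta1, the skeletal actin that the loaded ventricle takes up again, measured 2277, 2117 and 1717 CPM in WT-TAC and 2963, 4314 and 1685 CPM in KO-TAC. Its log2 fold change was 0.55 ± 0.30 (SE). Nppb, the gene of B-type natriuretic peptide, was at 741, 383 and 202 CPM in WT-TAC and 1492, 817 and 129 CPM in KO-TAC, for a log2 fold change of 0.88 ± 0.97 (SE). KO-TAC replicate 3 had the lowest value of the 6 for both genes. Without it Acta1 was at 0.84 (unadjusted p 0.00549, edgeR adjusted p 0.602) and Nppb at 1.39 (0.0410 and 0.883). Leaving out another library gave 0.19 to 0.63 for Acta1 and 0.10 to 1.47 for Nppb, with every unadjusted p above 0.05.

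Myh7, the slow myosin heavy chain, was at 7253, 5846 and 2379 CPM in WT-TAC and 5607, 14269 and 6578 CPM in KO-TAC. Its highest library was KO-TAC replicate 2. The log2 fold change of Myh7 was 0.77 ± 0.45 (SE), with a fold interval of 0.844 to 3.46 and an unadjusted p of 0.121 in edgeR. Nppa, the atrial natriuretic peptide gene, was at 7904, 2444 and 2668 CPM in WT-TAC and 6603, 5033 and 311 CPM in KO-TAC. Ankrd1, a stretch-responsive Z-disc protein, was at 5143, 3259 and 2391 CPM in WT-TAC and 3377, 4855 and 2138 CPM in KO-TAC. Xirp2, the relative of Xirp1, was at 7323, 4994 and 6202 CPM in WT-TAC and 3767, 8919 and 5453 CPM in KO-TAC. For Nppa, Ankrd1 and Xirp2 the log2 fold changes were −0.12, −0.06 and −0.03, and these data do not set their direction. Without KO-TAC replicate 3 they were 0.42, 0.19 and 0.04, and without WT-TAC replicate 1 they were 0.63, 0.28 and 0.10. Xirp2 was also positive, at 0.22, without KO-TAC replicate 1.

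**Figure D5:**
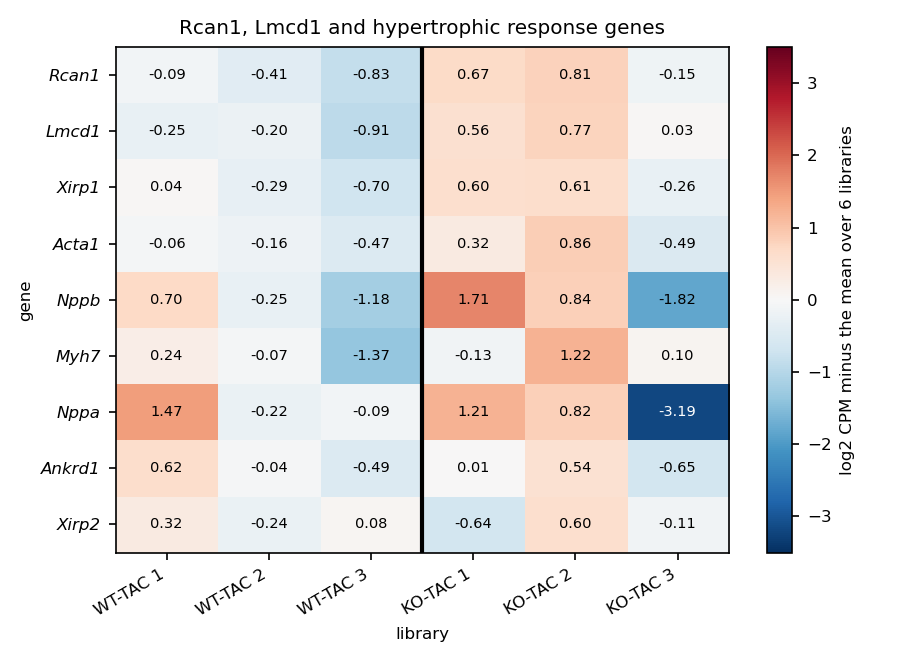
Log2 CPM minus the gene's mean over 6 libraries (colour scale and printed values) for Rcan1, Lmcd1 and 7 hypertrophic response genes in each library. KO-TAC replicates 1 and 2 are above the mean for Rcan1 (0.67 and 0.81), Lmcd1 (0.56 and 0.77) and Xirp1 (0.60 and 0.61), and WT-TAC replicate 3 is below it for each.

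Over the 6 libraries the log2 CPM of Rcan1 was followed most closely, among 11940 genes, by Lztr1 (Pearson r = 0.989), Xirp1 (0.985), Tecpr1 (0.981), Yrdc (0.975) and Ostf1 (0.973). With 6 points that share genotype and library, such values are a description and carry no p. Within the pathway lists Lmcd1 had r = 0.97 with Rcan1, Stim1 0.89, Acta1 0.89, Myh7 0.77, Nppb 0.74 and Fkbp1a 0.72. By contrast, Gsk3b had −0.82, Mapk14 −0.71 and Mef2a −0.70. High values were not particular to the pathway. The endothelial markers Cdh5, Tie1 and Kdr had 0.90, 0.84 and 0.83, and Pecam1 and Npr3 of the same list 0.37 and −0.0071. Nor were strongly negative values particular to it. Ryr2 of the ventricular list had −0.82, and the other markers of that list −0.24 to 0.32. Nr2f2 of the atrial list had −0.70, and the other tested markers of that list −0.0043 to 0.21. Among the 10 genes r was 0.78 for Nfatc4, 0.43 for Nfatc2 and 0.067 for Nfatc1. It was −0.58 for Nfatc3, −0.68 for Ppp3cb, −0.70 for Ppp3ca, −0.78 for Rcan2 and −0.87 for Ppp3r1. The libraries with most Rcan1, KO-TAC replicates 1 and 2, also had the lowest levels of Ppp3r1, at 67.9 and 54.8 CPM. KO-TAC replicate 1 was close to WT-TAC replicates 1 and 2, at 71.6 and 72.6 CPM, so only KO-TAC replicate 2 stood apart.

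Markers of other cell types overlapped between genotypes in their sums. The 5 endothelial and endocardial markers summed to 673, 837 and 770 CPM in WT-TAC and 1083, 975 and 764 CPM in KO-TAC. All 5 had positive log2 fold changes, and Kdr, the VEGF receptor gene of endothelium, had 0.56 ± 0.20 (SE) with an unadjusted p of 0.0134 in edgeR. Kdr was the 1 of the 5 with every KO-TAC library above every WT-TAC library, an arrangement seen in 4.26% of all tested genes. Summed fibroblast markers ran from 1087 to 2267 CPM in WT-TAC and from 929 to 2194 CPM in KO-TAC. Leukocyte markers ran from 70.0 to 84.2 CPM in WT-TAC and from 50.5 to 92.3 CPM in KO-TAC.

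Smooth muscle and pericyte markers summed to 419 to 519 CPM in WT-TAC and 334 to 474 CPM in KO-TAC, and 4 of the 5 had negative log2 fold changes. Myh11, the smooth muscle myosin heavy chain, was at −0.62 ± 0.27 (SE; unadjusted p 0.0412 in edgeR) and Tagln, an actin-binding protein of smooth muscle, at −1.06 ± 0.51 (SE; unadjusted p 0.0688). In both genes every KO-TAC library was below every WT-TAC library, an arrangement seen in 3.72% of all tested genes. Rgs5, a pericyte marker, lay the other way, with every KO-TAC library above every WT-TAC library (4.26% of all tested genes), at 0.30 ± 0.17 (SE). Atrial markers summed to 887, 600 and 815 CPM in WT-TAC and 1086, 607 and 130 CPM in KO-TAC, so KO-TAC replicate 3 stood apart at the low end, as it did for Nppa. All 4 tested atrial markers had negative log2 fold changes. For Myl4, Myl7 and Sln these were small beside their SE, at −0.25 ± 0.91, −0.38 ± 0.63 and −0.38 ± 0.72. In each of these genes KO-TAC replicate 3 was the lowest library, at 59.0, 32.4 and 7.68 CPM. KO-TAC replicate 1 was the highest library for Myl4 and Myl7, at 796 and 199 CPM. Nr2f2, an atrial and venous transcription factor gene, measured 45.0, 47.6 and 47.4 CPM in WT-TAC and 30.5, 28.2 and 26.2 CPM in KO-TAC, all lower, at −0.72 ± 0.20 (SE; unadjusted p 0.00264, edgeR adjusted p 0.999), a smaller unadjusted p than that of Rcan1. No marker of these lists was at 0 in all libraries. Their part in the level of Rcan1 was not tested, and in a whole heart more cells of a type and more RNA per cell cannot be told apart.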

How the data were processed

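RNA of 3 WT-TAC and 3 KO-TAC heart samples was measured. Per the labels' protocols, libraries came from a TruSeq kit, plain or stranded; the kit of each sample is not given here, and counts of genes overlapping on opposite strands may therefore hold each other's reads. The deposited table holds raw counts per gene symbol, whole numbers with no normalization by the authors. Per the submitters' processing notes, the tools were FastQC, HISAT2 2.1.0, Subread and edgeR and the builds GRCm38 and mm10; their roles are not stated. Of the 24404 genes, 6680 had no count in any library.

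The test was that of edgeR 4.0.16 (R 4.3.3): filterByExpr (minimum count 10), TMM scaling and a robust quasi-likelihood fit of genotype over 12487 genes, with Benjamini-Hochberg adjustment over all of them and a threshold of 0.05. The common biological coefficient of variation was 0.286. Positive log2 fold changes mean higher in KO-TAC. Their SE is the absolute value over the square root of F, and 95% intervals use the t quantile of the test's degrees of freedom. CPM use TMM-scaled totals, log2 CPM a prior count of 2, and RPKM the union of GENCODE M21 exons. Seed sites were sought in each gene's longest annotated 3′ UTR and GGAAA on both strands of RefSeq windows. The members and lists were chosen with earlier results of these data known. Named genes are the 10 members, pathway genes with p under 0.05, the hypertrophic response genes and the 5 genes with the highest r with Rcan1 at a mean log2 CPM of at least 1; others are examples of their lists chosen after their values were seen. As alternatives, library sizes were scaled by RLE, by upper quartile or by totals alone, the filter was dropped or set to 1 CPM in 3 libraries, and the other fits were DESeq2 1.42.0, limma-voom 3.58.1, a replicate block and one library left out at a time. One gene of the pathway lists is counted in its list but not reported here by name.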

Additional observations from a re-analysis of the deposited data

How the results depend on the processing

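Over the 14 alternatives, 114 of the 126 values of the 9 tested genes kept their direction and side of the threshold. Rcan1 passed the threshold in 1 of them, with no filter on low counts, where its log2 fold change was 0.92 (edgeR adjusted p 0.0290); its adjusted p ran from 0.0290 to 1.00 over the alternatives and was 0.366 in DESeq2. That fit called 21 genes in all, 1 of the 10 members and 1 of the pathway genes, Rcan1 in both cases. Over all tested genes DESeq2 called 16 and limma-voom 0, with 376 genes at an unadjusted p under 0.05. Leaving out 1 library gave 0 to 7 called genes: 0 without WT-TAC replicate 1 (437 at an unadjusted p under 0.05 in edgeR), 7 when KO-TAC replicate 2 was dropped and 6 when KO-TAC replicate 3 was.

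Direction changed with a library left out for Rcan2 (−0.34 to 0.014), Ppp3cb (−0.39 to 0.22), Nfatc1 (−0.17 to 0.13), Nfatc2 (−0.14 to 0.045) and Nfatc3 (−0.19 to 0.22), and for Nfatc3 also with no scaling beyond the total count (−0.000188); the cause was not tested. Rcan1 ranged from 0.73 to 1.16. Rcan1, Nfatc4, Ppp3ca and Ppp3r1 kept their sign throughout the 14 alternatives. The median log2 fold change of all tested genes moved between −0.02 and 0.0081 over the settings.

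Whether the replicate numbers pair the samples was not settled. Deviations of libraries with the same number correlated at 0.13, 0.011 and 0.26. Those with different numbers correlated at −0.22 to 0.15, and WT-TAC replicate 1 correlated best with KO-TAC replicate 2 (0.15). With the replicate block 6 genes were called, and 574 had an unadjusted p under 0.05 in edgeR, against 366 without the block. Rcan1 then had 0.89 ± 0.17 (SE) with an edgeR adjusted p of 0.114. With the block 0 members were called, with 1 at an unadjusted p under 0.05.

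Myoz1 has a fitted value only without the filter. The counts do not separate the Rcan1 starts, the comparison holds no unoperated hearts, and RNA counts measure neither calcineurin activity nor where NFAT proteins are.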
